A study of Rattus norvegicus with 2 samples.

Results

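The genes described here are 10 membrane proteins of the kidney's proximal tubule: the transporters Slc34a1, Slc5a2, Slc5a1, Slc22a6, Slc22a8, Slc22a2 and Slc3a1, the endocytic receptors Lrp2 and Cubn, and the water channel Aqp1. They were chosen by symbol with earlier results of these data known, the rule itself using no value, and all 10 were found among the 16484 features that carry an NCBI gene number. RNA was sequenced from the urine of Sprague Dawley rats in 2 libraries, 1 labelled WT and 1 labelled UUO, to ask which transcripts differ in urine when the kidney scars. The UUO rats (unilateral ureteral obstruction) had the right ureter tied, and the WT rats had the same surgery with no ligation. Rats were 8 weeks old by the protocol (postnatal day 56 by the labels) and were examined 2 weeks after surgery. The labels and methods name no gene alteration and no drug for either group. Urine was drawn from the ureter by catheter in both groups, and the number of rats behind a library is not given. With 1 library per group there is no replicate check, no test between the groups was possible, and every difference below describes these 2 libraries.

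The proximal tubule is the first segment of the nephron behind the glomerulus and takes back most of the filtered glucose, phosphate, amino acids, protein and water. Carriers of the brush border bring solutes into the cell from the tubule fluid, while carriers of the basolateral side bring drugs, toxins and organic ions in from the blood so that they can be secreted. Megalin (Lrp2) and cubilin (Cubn) are giant receptors that bind filtered proteins and vitamins for endocytosis. RNA in urine can come from shed cells, their fragments or vesicles. The study's methods describe spinning the urine prior to freezing and again after thawing, and which of these sources the libraries hold was not tested. Fewer tubule cells and less RNA per cell cannot be told apart in a bulk urine library.

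Values are FPKM, which divide the fragments of a gene by its length and by the total of the library, so levels can be compared between genes. A gene was called detected at an FPKM of at least 1. Differences between libraries are given as UUO minus WT on the log2(FPKM + 1) scale, which understates the change of low genes, and a size of 1 (2-fold) was the limit for counting a gene as higher or lower. A plain FPKM ratio is given only where both values were at least that of 1 fragment on a feature of 1000 bases, 0.542 in WT against 0.497 in UUO urine. Those unit values follow from approximate library totals, estimated from steps in the FPKM of assembled features as 2116000 fragments for WT and 2444000 for UUO urine. A gene listed at 0 may reflect a failed estimate: 51.3% of the numbered genes were at 0 in WT against 27.2% in UUO urine, and the housekeeping gene Gapdh was near 0 in both, at 0.406 and 0.367. Another housekeeping gene, Actb, was 2165 in WT against 663 in UUO urine.

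In WT urine all 10 genes were detected, from 3.55 (Slc5a2) to 72.5 (Slc3a1), with a median FPKM of 22.8. In UUO urine 6 were detected, and the range ran from 0.0807 (Slc22a8) to 47.4 (Slc3a1), with a median of 2.93. Each gene was listed above 0 in both libraries. As a level for genes that kidney and urinary tract cells are not known to use, 161 vomeronasal and taste receptor genes reached at most 2.12 in WT urine and 2.16 in UUO urine, with a 95th percentile of 0 and 0.842. All 10 genes stood above that highest receptor value in WT urine. In UUO urine 5 did so (Slc34a1, Slc22a2, Slc3a1, Lrp2 and Aqp1), and Slc22a6 lay within the receptor range, as did the 4 genes that were not detected (Slc5a2, Slc5a1, Slc22a8 and Cubn), all 4 of them below the 95th percentile.

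**Figure D1:**
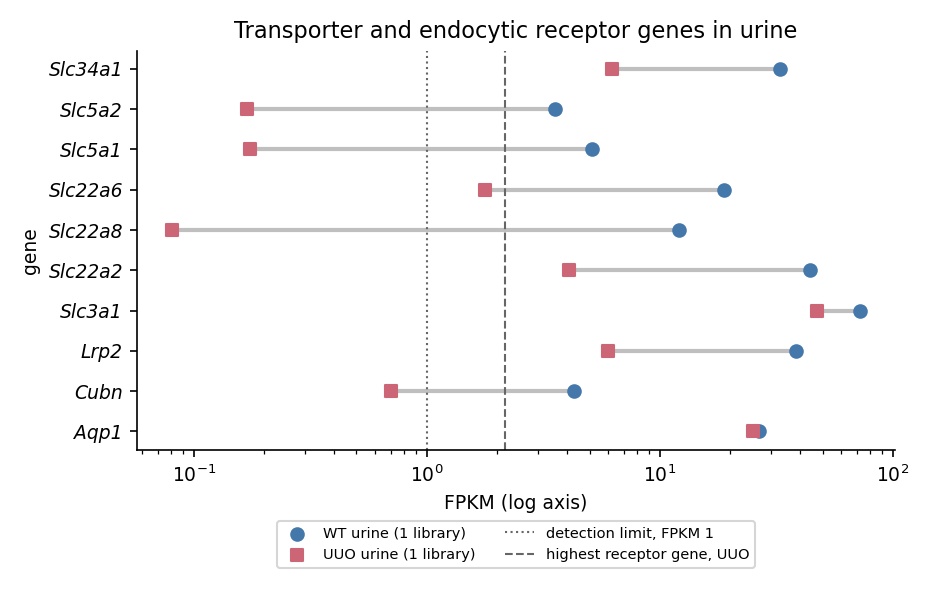
FPKM of the 10 genes (log axis) in WT urine (blue circles) and UUO urine (red squares), 1 library each, with the detection limit of 1 (dotted) and the highest vomeronasal or taste receptor gene of the UUO library at 2.16 (dashed). The squares of Slc3a1 and Aqp1 lie close to their circles, and the other 8 squares lie far to the left of theirs.

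Of the 10 genes, 8 were lower in UUO urine by 2-fold or more and 0 were higher. Among all 9853 numbered genes that reached an FPKM of 1 in either library, 36.5% were lower and 25.7% higher. Genes at 0 in WT urine can only be higher, so the same shares were taken over the 7784 genes above 0 in both libraries, of which 44.1% were lower and 8.11% higher. Over the 6038 genes whose WT FPKM lay within the range of these 10, 46.2% were lower and 4.95% higher. A gene at these WT levels was therefore often lower in UUO urine, and the 8 of 10 stand beside 46.2%. The median log2 difference was -2.30 for the 10 genes, -0.51 for all 9853 and -0.90 for those within the WT range.

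**Figure D2:**
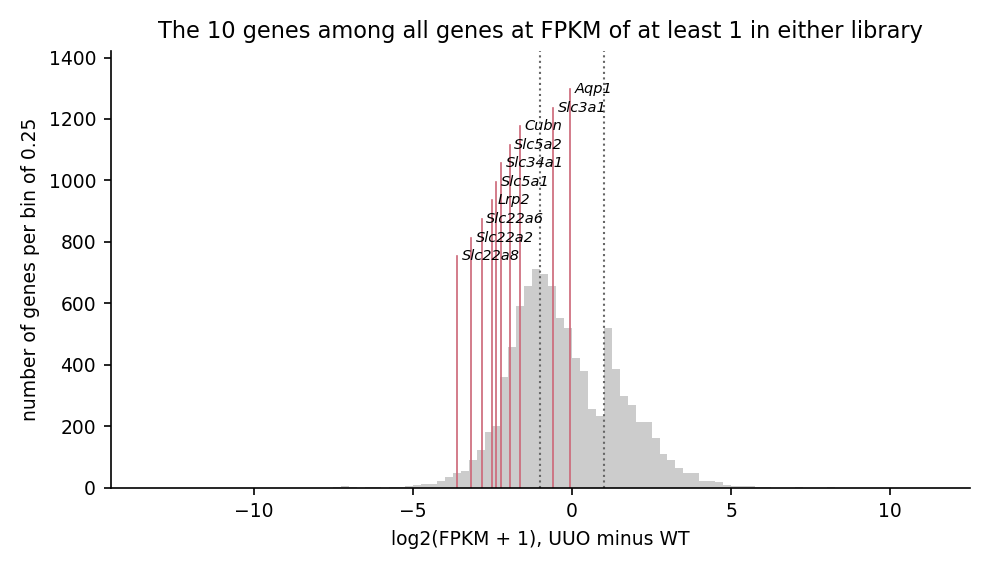
Histogram of the log2(FPKM + 1) difference, UUO minus WT, over the 9853 numbered genes that reached an FPKM of 1 in either library (grey bars, bins of 0.25), with the 10 genes as red lines and the 2-fold limits dotted. The lines of 8 genes lie between -3.60 and -1.63, and those of Slc3a1 and Aqp1 lie nearer to 0.

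The scaling between the libraries moved the centre of all genes and has to be read with these values. The median of all genes was -0.51 as deposited and 0.46 after UUO values were rescaled by the median ratio (a factor of 1.86). By the median ratio 4207 of 10582 genes were higher and 1652 lower, against 2534 and 3600 of 9853 as deposited. Counts of any list below as deposited stand beside 36.5% lower and 25.7% higher of all 9853 genes. Median-ratio counts stand beside those 4207 higher and 1652 lower of 10582. Under each of 5 rescalings 8 of the 10 genes were still lower by 2-fold and 0 were higher. Relative to the median of all genes, the median of the 10 was -1.79 as deposited and between -2.21 and -1.85 after rescaling. The log2 differences of the 8 lower genes ran from -3.60 to -1.63 as deposited and from -3.51 to -1.19 by the median ratio.

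**Figure D3:**
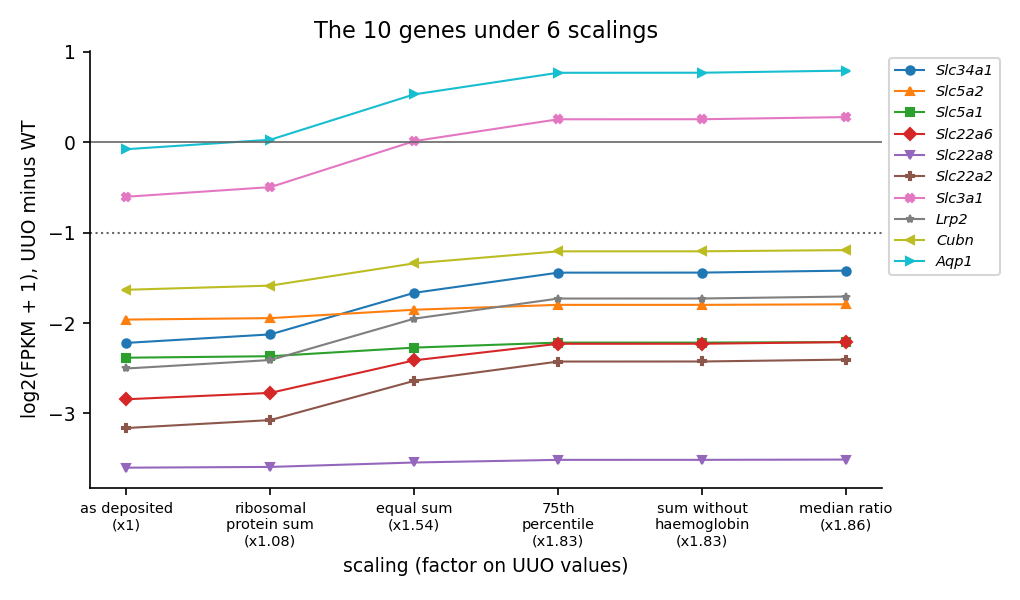
The log2(FPKM + 1) difference, UUO minus WT, of each gene (1 line per gene) as deposited and under 5 rescalings, ordered by the factor put on the UUO values. 8 lines stay below the dotted 2-fold limit throughout, Aqp1 passes 0 under all 5 rescalings and Slc3a1 under 4 of them.

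A promoter window is shown for Slc3a1, the gene that holds an HNF4 site, because the transcript of the kidney factor Hnf4a, whose values follow further on, was also lower in UUO urine. These letters were chosen after the values were seen. RefSeq promoters (GRCr8) were matched for 9 of the 10 genes, all but Slc22a6, and the 250 bases before the start were searched on both strands for CAAAGTCCA. It was found in 1 of the 9 windows and in 0.338% of all 33469. The window of Slc3a1 lies at chr6:15394750-15394999 on the minus strand, and capitals mark the match as it reads on the strand of the gene.
Slc3a1: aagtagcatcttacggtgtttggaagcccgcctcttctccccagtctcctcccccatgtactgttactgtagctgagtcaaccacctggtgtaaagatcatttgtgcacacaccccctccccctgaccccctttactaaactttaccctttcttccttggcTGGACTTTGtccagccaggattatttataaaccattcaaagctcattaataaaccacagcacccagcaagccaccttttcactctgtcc
The capitals are the reverse complement of CAAAGTCCA and begin 89 bases before the start. A match is only a description of these letters, and binding was not measured. Slc3a1 itself was within 2-fold between the libraries.

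Slc34a1 (NaPi-IIa, gene ID 25548, listed at chromosome 17 from 11856944 to 11872101) is the sodium-phosphate cotransporter of the brush border and takes up most of the filtered phosphate. Its FPKM was 32.7 in WT urine and 6.24 in UUO urine. It was 5.25-fold lower in UUO urine, a log2 difference of -2.22. In the order of all numbered genes it stood above 86.7% of them in WT and above 68.5% in UUO urine. The 7 other features of its locus each had an FPKM under 1. All loci are given as the table lists them, on rn5, the build named in the submitters' processing notes.

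The sodium-glucose cotransporters were low in both libraries. Slc5a2 (SGLT2, gene ID 64522, chromosome 1 from 206728634 to 206764347) reabsorbs most filtered glucose in the early tubule and is the target of the gliflozin drugs. Its FPKM was 3.55 in WT against 0.169 in UUO urine, a log2 difference of -1.96. Slc5a1 (SGLT1, gene ID 25552, chromosome 14 from 83595211 to 83660562) takes up the remaining glucose further along the tubule. Its FPKM was 5.13 in WT against 0.174 in UUO urine, a log2 difference of -2.38. Both UUO values are at the edge of what the library can show, since 1 fragment would give them on a feature of 2600 bases (Slc5a2) or 2523 bases (Slc5a1). No plain ratio is given for either. The locus of Slc5a2 also holds Rusf1, at 9.14 in WT against 6.08 in UUO urine, and NONRATT006553, at 1.14 and 0.461. With FPKM summed over that locus the log2 difference was -0.67, no longer 2-fold.

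The basolateral carriers of the Slc22 family had the 3 lowest log2 differences among the 10 genes at the pseudocount of 1, an order that did not hold at 0.1, where Slc5a1 (-4.25) and Slc5a2 (-3.77) lay below Slc22a2 (-3.41), nor at 10 or with locus sums, where Slc22a8 (-1.13 and -1.84) lay above Lrp2 (-1.60 and -2.34). Slc22a2 (OCT2, gene ID 29503, chromosome 1 from 51394010 to 51435106) carries organic cations such as creatinine and metformin from blood into the cell. Its FPKM was 44.4 in WT against 4.07 in UUO urine, 10.9-fold lower, a log2 difference of -3.16. Slc22a6 (OAT1, gene ID 29509, chromosome 1 from 231761626 to 231770063) carries organic anions, the model substrate being para-aminohippurate. Its FPKM was 19.0 in WT against 1.78 in UUO urine, 10.6-fold lower, a log2 difference of -2.84. That UUO value lay within the receptor range given above, so the fold is not firm.

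Slc22a8 (OAT3, gene ID 83500, chromosome 1 from 231709855 to 231759342) is the other organic anion carrier of that membrane and lies beside Slc22a6 on the chromosome. Its FPKM was 12.1 in WT against 0.0807 in UUO urine, a log2 difference of -3.60. A whole fragment would give that UUO value only on a feature of 5246 bases, so the size of the difference rests on a value at or under the counting limit. The 7 other features of its locus, all noncoding entries, were at 0 in WT urine and between 0.0542 and 0.770 in UUO urine. The FPKM of all 8 features together came to 12.1 in WT against 2.66 in UUO urine, a log2 difference of -1.84. Some of these entries had nearly equal UUO values, such as NONRATG003750 at 0.287 and NONRATT007188 at 0.285. The sum may thus count the same fragments more than once, which was not tested. Within WT urine Slc22a6 was 1.57 times Slc22a8. No such ratio is given for UUO urine, where Slc22a8 lay under the value of 1 fragment on 1000 bases. Slc22a2 was 2.34 times Slc22a6 in WT and 2.29 times in UUO urine, where Slc22a6 lay within the receptor range.

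Slc3a1 and Aqp1 stood apart from the other 8 and are named together because of these values. Slc3a1 (rBAT, gene ID 29484, chromosome 6 from 8217522 to 8278758) is the heavy subunit of the brush border carrier for cystine and dibasic amino acids, whose loss causes cystinuria. It had the highest FPKM of the 10 genes in both libraries, 72.5 in WT against 47.4 in UUO urine. The log2 difference was -0.60, a ratio of 1.53, and it was above 0 under 4 of the 5 rescalings, up to 0.28. In rank Slc3a1 stood above 94.4% of the numbered genes in WT and above 96.1% in UUO urine. Its locus is shared with Prepl, at 9.34 in WT against 5.15 in UUO urine, and with NONRATG024873, listed at 0 and at 1.04. The locus sums were 82.9 and 55.0.

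Aqp1 (gene ID 25240, chromosome 4 from 150203226 to 150215642) is the water channel of the proximal tubule and of the thin descending limb, and it is also made by red cells and by endothelium. Its FPKM was 26.7 in WT against 25.2 in UUO urine, a log2 difference of -0.08 that was above 0 under all 5 rescalings, up to 0.79. Red-cell genes moved with the UUO label: of 11 listed, the 10 with FPKM of at least 1 were all higher by 2-fold (2 of them at 0 in WT urine), and the summed FPKM was 3181 in WT against 88843 in UUO urine. Endothelial genes were close to 0, with 3 of 8 at FPKM of at least 1, sums of 1.80 and 4.62, and Cdh5, Emcn and Tek at 0 in both libraries. The part of red cells or endothelium in the Aqp1 value was not tested.

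Lrp2 (megalin, gene ID 29216, chromosome 3 from 62271275 to 62434959) is the larger partner by FPKM, at 38.7 in WT against 5.995 in UUO urine. It was 6.45-fold lower in UUO urine, a log2 difference of -2.50. Cubn (cubilin, gene ID 80848, chromosome 17 from 82205500 to 82425565), which lacks a membrane anchor of its own and works with megalin, stood at 4.29 in WT against 0.706 in UUO urine. It was 6.08-fold lower, a log2 difference of -1.63. The ratio of Lrp2 to Cubn was 9.02 in WT against 8.50 in UUO urine. The UUO value of Cubn lay under the detection limit and within the receptor range given above, so its fold and this ratio are not firm.

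The summed FPKM of the 10 genes was 259 in WT against 91.8 in UUO urine. Slc3a1 and Aqp1 made up 38.3% of that sum in WT and 79.1% in UUO urine, a share that no rescaling of a library by 1 factor can alter. The other 8 genes summed to 159.8 in WT against 19.2 in UUO urine. Slc3a1 was 1.88 times Lrp2 in WT against 7.90 times in UUO urine, and 2.22 against 7.59 times Slc34a1.

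**Figure D4:**
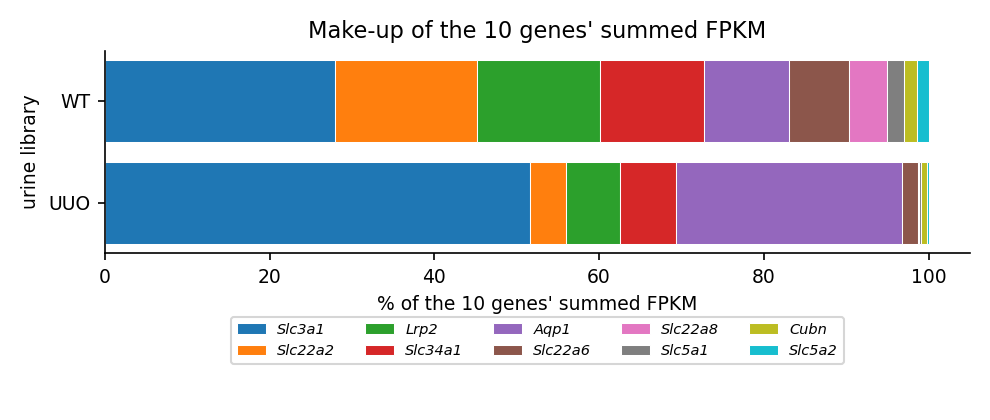
Share of each gene in the summed FPKM of the 10 genes, in percent, for the WT library (upper bar) and the UUO library (lower bar), with genes in the order of their WT values. Slc3a1 (27.996% and 51.6%) and Aqp1 (10.3% and 27.5%) fill most of the UUO bar.

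Partners of these proteins were examined next, from lists written with earlier results of these data known. Of 21 genes of receptor-mediated endocytosis, all reaching an FPKM of 1 in either library, 9 were lower and 4 higher as deposited. Those counts stand beside 36.5% lower and 25.7% higher of all genes. Of the 4 higher ones 3 were at 0 in WT urine. Among the 18 above 0 in both libraries 9 were lower and 1 higher, beside 44.1% and 8.11% of all such genes. By the median ratio 6 of the 21 were lower and 7 higher. The list median passed from -0.55 to 0.13 as the median of all genes passed from -0.51 to 0.46. Relative to the median of all genes it was -0.04 and -0.33. Amn (amnionless), the anchor that carries cubilin to the membrane, was 21.1 in WT against 0.972 in UUO urine. The endosomal tether Eea1 was 42.2 in WT against 5.16 in UUO urine. The clathrin heavy chain Cltc was 164 and 66.3, the light chain Clta 186 and 141.7, and the adaptor subunit Ap2s1 402 and 93.4. Rab5a, the small GTPase of early endosomes, was listed at 0 in WT urine and at 20.1 in UUO urine. Among the lower genes Amn and Eea1 differed most, while Clta was within 2-fold. The UUO value of Amn lay under the detection limit and within the receptor range, so the size of its difference is not firm.

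Megalin's own helpers were within 2-fold as deposited, and they were chosen after their values were seen. Dab2, the adaptor that binds the tail of megalin, was 22.1 in WT against 18.3 in UUO urine. Lrpap1, the chaperone that folds megalin, was 33.4 and 41.8. Set against them inside each library, Lrp2 was 1.75 times Dab2 in WT against 0.327 times in UUO urine.

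Scaffold proteins and enzymes of the brush border were mostly lower. Of 14 listed genes, 11 were lower and 2 higher by 2-fold as deposited, and 8 lower and 3 higher by the median ratio. The 2 higher as deposited were listed at 0 in WT urine. Of all genes, 36.5% were lower and 25.7% higher as deposited. Nherf1, the scaffold that holds Slc34a1 in the membrane, was 1235 in WT against 203.9 in UUO urine, 6.06-fold lower. Pdzk1, a related scaffold, was 210.1 and 51.6, and ezrin (Ezr), which ties the membrane to actin, was 726 and 165. The peptidase neprilysin (Mme) was 48.5 and 4.63, 10.5-fold lower. Slc34a1 and its scaffold Nherf1 kept nearly the same ratio, 0.0265 in WT against 0.0306 in UUO urine.

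Among other proximal tubule transporters the picture was mixed. Of 39 found in the table, 29 reached an FPKM of 1 in either library, with 14 lower and 10 higher as deposited, and 7 lower and 14 higher of 31 by the median ratio. Of the 10 higher ones 7 were listed at 0 in WT urine. Among the 21 above 0 in both libraries 13 were lower and 3 higher, beside 44.1% and 8.11% of all such genes. The counts over the 29 stand beside 36.5% lower and 25.7% higher of all genes. The median of the 29 was -0.79, beside -2.30 for the 10 genes above. By the median ratio it was 0.05 over 31 genes, where the median of all genes was 0.46. Relative to the median of all genes the list median was -0.28 as deposited and -0.41 by the median ratio.

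Slc13a3, which loads the cell with the dicarboxylates that Slc22a6 and Slc22a8 exchange for organic anions, was 33.4 in WT against 1.08 in UUO urine, 30.9-fold lower. Slc7a7, a basolateral exporter of dibasic amino acids, was 9.70 and 0.804, 12.1-fold lower. Slc26a6, an anion exchanger, was 7.24 and 0.488. These 3 had the largest differences of the list. All 3 UUO values lay within the receptor range given above, so the sizes of these differences are not firm. The urate carrier Slc22a12 (URAT1) was the highest of this list in WT urine and by the sum of both libraries, at 48.6 in WT against 16.5 in UUO urine, 2.94-fold lower. Slc7a13, an amino acid carrier that pairs with Slc3a1, was 25.8 and 9.96, 2.59-fold lower. Slc7a9, the light subunit that forms the cystine carrier with Slc3a1 and was chosen after its values were seen, was 8.17 and 2.34, 3.49-fold lower. Both partners were thus lower by more than Slc3a1 itself: the ratio of Slc7a9 to Slc3a1 was 0.113 in WT against 0.0495 in UUO urine, and that of Slc7a13 to Slc3a1 was 0.357 and 0.210. Slc6a19, Slc13a1, Slc13a2 and Slc36a2 were listed at 0 in both libraries.

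Within the gene families of these carriers the outcome differed between members. In the Slc22 family 13 of 19 genes reached an FPKM of 1 in either library, 7 lower and 4 higher, and the 4 higher ones were all at 0 in WT urine. By the median ratio the family split was 4 lower and 9 higher of 16. Slc22a23, an orphan carrier, was 17.4 in WT against 26.8 in UUO urine. Among aquaporins, Aqp11 of the proximal tubule was 11.8 in WT against 0.267 in UUO urine, Aqp2 of the collecting duct 50.2 and 35.02, and Aqp3 85.1 and 121.

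Other markers of the proximal tubule and of other cells were read beside the 10 genes. Their counts as deposited stand beside 36.5% lower and 25.7% higher of all genes. Of 7 transcription factors of the proximal tubule, 6 were lower and 1 higher (4 lower and 1 higher by the median ratio). Hnf4a was 158 in WT against 39.6 in UUO urine, 3.99-fold lower, and Esrra was 164 and 41.3, 3.98-fold lower. These factors are known regulators of proximal tubule transporters and enzymes. Of 11 proximal tubule enzymes with FPKM of at least 1, 6 were lower and 0 higher (3 lower and 2 higher by the median ratio). Khk, the ketohexokinase of fructose breakdown, was 416 in WT against 59.9 in UUO urine and Agmat 94.3 and 20.6, while Miox, the inositol oxygenase, was 925 and 245. Hao2 was 1006 and 428.

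Set against these enzymes inside each library, the 8 lower transporter and receptor genes summed to 0.0390 times the enzymes in WT and 0.0124 times in UUO urine. These 8 were picked because they were lower, so their sums are a description. All 10 genes summed to 0.0632 and 0.0591 times the enzymes. The ratio of all 10 to the brush border list was 0.110 in WT against 0.188 in UUO urine, and to the regulators 0.610 and 0.764, both higher in UUO urine. To the loop and distal tubule list it was 3.77 and 0.958. Slc3a1 and Aqp1 made up 79.1% of the UUO sum of the 10. The 8 lower genes alone summed to 0.0678 times the brush border list in WT against 0.0394 times in UUO urine. For the regulators these values were 0.376 and 0.160, so both ratios of the 8 were lower in UUO urine.

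For segments beyond the proximal tubule the counts as deposited stand beside 36.5% lower and 25.7% higher of all genes. Those by the median ratio stand beside 1652 lower and 4207 higher of 10582. Of 7 loop and distal tubule genes with FPKM of at least 1, 0 were lower and 4 higher, 3 of them listed at 0 in WT urine. Umod, the main protein of the thick ascending limb in urine, was 30.1 in WT against 26.3 in UUO urine, and Slc12a3 of the distal tubule was 12.7 and 14.0. Calb1, a calcium-binding protein, was 12.6 and 35.6. Of 9 collecting duct genes 3 were lower and 3 higher, and by the median ratio 1 lower and 4 higher.

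Markers of cells outside the tubule are given as counts, those as deposited beside the 25.7% higher and 36.5% lower of all genes. Counts by the median ratio stand beside 4207 higher and 1652 lower of 10582. The podocyte list had 3 of 4 genes higher and 1 lower, and 4 of 5 higher and 0 lower by the median ratio. In the urothelium list 3 of 8 were higher and 1 lower, and 6 higher and 0 lower by the median ratio, with Upk3a at 312 and 466. Leukocyte genes were higher in 6 of 7, of which 5 were at 0 in WT urine, and of the 2 genes above 0 in both libraries 1 was higher. The neutrophil protein gene S100a9 was listed at 0 in WT urine and at 71.7 in UUO urine. Tubule injury genes were higher in 7 of 9, of which 4 were at 0 in WT urine, and of the 5 above 0 in both libraries 3 were higher, with Spp1 listed at 0 and at 129.7 and Lcn2 at 0 and at 8.63. What these other cells contribute to the values of the 10 genes was not tested.

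**Figure D5:**
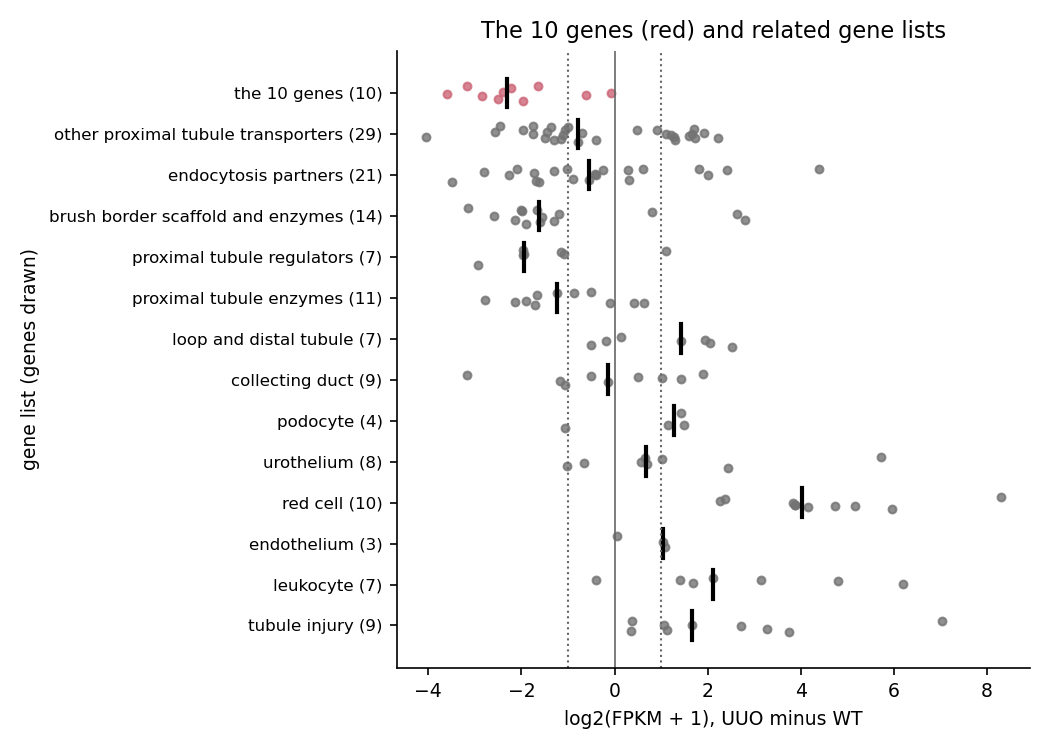
The log2(FPKM + 1) difference, UUO minus WT, of each gene that reached an FPKM of 1 in either library (points), by list, with the list median as a black bar, 0 as a solid line and the 2-fold limits dotted. The 10 genes (red) have the lowest median, -2.30, followed by the regulators at -1.94 and the brush border genes at -1.63.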

How the data were processed

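Urine RNA was sequenced in 1 WT and 1 UUO library. It was isolated with a column kit by the study's methods and with Trizol by the labels. The submitters' processing notes name Bowtie2 2.0.6, TopHat2 2.0.9, Cufflinks 2.1.1 and Cuffdiff 2.1.1, and the build rn5. The authors deposited 1 FPKM value per library for 113011 features. The total used for scaling is not given in the sources used here. The table's fold changes, test statistics, p-values and q-values were not used. Of all features, 94.5% shared a listed locus. The columns UrRf and Urc were read as UUO and WT: of 195 entries of the study's urine mRNA lists, 195 matched this reading and 0 the exchanged one. Every direction rests on it. RefSeq (GRCr8) gave symbols for 99.1% of the numbered genes.

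Analysis used Python 3.11.15, pandas 2.3.3 and numpy 2.4.6 and was tested on simulated data. The pseudocount was 1, the detection limit FPKM 1 and the limit of size 2-fold. Depth was estimated from assembled features of 400 to 1200 bases that share no locus, whose FPKM came within 0.1 of whole fragments for 93.5% of 186 (WT) and 99.3% of 3530 (UUO). Multiples of a total give whole numbers too, so the lowest was kept. Coding lengths were not used here, so fragments and counting intervals per gene are not given. Alternatives were pseudocounts of 0.1 and 10, other filters, a 4-fold limit, FPKM summed per locus, and 5 rescalings: equal sums, the median ratio, the same 75th percentile, the same sum of 73 ribosomal protein genes, and equal sums without 11 haemoglobin genes. Shares over genes above 0 in both libraries and over the members' WT range were added after seeing the data. Named are the members, locus neighbours with FPKM of at least 1, genes at 0 in both libraries and, from each list, genes among the 3 largest differences or the 3 highest sums. Some genes that this rule names are not reported here. Gapdh, Actb, Slc7a9, Dab2 and Lrpap1, outside that rule, were chosen after their values were seen. Members and lists were chosen with earlier results of these data known.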

Additional observations from a re-analysis of the deposited data

How the results depend on the processing

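No paired analysis was possible because WT and UUO are 1 library each. Counts within 1.5 times, and log2 differences of the same sign and the same side of 1, were taken as unchanged. With a pseudocount of 10, 5 genes were lower by 2-fold and the median of the 10 genes was -0.85, with Slc5a2 at -0.41, Slc5a1 at -0.57 and Cubn at -0.42, since a pseudocount of that size exceeds their values. With FPKM summed over its locus Slc5a2 was at -0.67, where Rusf1 holds most of the FPKM. Locus sums may count the same fragments more than once, which was not tested. Slc3a1 reversed to 0.012 with equal sums, 0.28 by the median ratio, 0.25 at the same 75th percentile and 0.25 without haemoglobin, and Aqp1 to 0.53, 0.79, 0.77 and 0.77 under the same settings and to 0.027 with equal ribosomal protein sums. Each rescaling multiplies UUO values by a factor above 1, which moves every difference upward. With FPKM above 0 as the limit, 10 genes counted as detected in UUO urine, beside 6 as reported. That count was 9 with FPKM summed over the locus and 4 at an FPKM of at least 5. Both lie at the edge of 1.5 times and were taken as unchanged. The median ratio gave 7. By those limits the other values of the 10 genes were unchanged under the settings tried. Depth limits Slc5a2, Slc5a1 and Slc22a8 in UUO urine, whose values were under that of 1 fragment on 1000 bases.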

Other observations

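The Slc7 family, amino acid carriers of which some pair with Slc3a1 or its relative Slc3a2 and others work alone, held 9 genes that reached an FPKM of 1 in either library, of which 6 were lower and 2 higher in UUO urine (4 and 4 of 10 by the median ratio). The 2 higher as deposited were listed at 0 in WT urine. Of all genes, 36.5% were lower and 25.7% higher as deposited. Slc7a2, a carrier of cationic amino acids, was 19.0 in WT against 0.880 in UUO urine, and Slc7a4 was 11.5 and 0.185. Slc7a5, the large neutral amino acid carrier of growing cells, was listed at 0 in WT and at 5.83 in UUO urine. In the Slc5 family the vitamin carrier Slc5a6 was 11.4 and 4.22, and the lactate carrier Slc5a12 was 2.36 in WT and listed at 0 in UUO urine. In the collecting duct list the subunits of the epithelial sodium channel went apart: Scnn1a was 18.4 in WT against 1.16 in UUO urine, Scnn1b was 14.4 and 13.0, and Scnn1g was 2.995 and 9.72. There was no replicate of either library, and these values are a description.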
